A study of Ovis aries with 15 samples.

Results

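Immediate early genes were followed in the longissimus dorsi (LD), a muscle of the back, of sheep from mid fetal life to the young lamb. The genes listed were FOS, FOSB, JUN, JUNB, EGR1, ATF3, IER2, BTG1, BTG2 and CITED2. Every probe set whose only gene symbol was one of these 10 genes was taken. This gave 18 of the 24016 probe sets on the array, for 9 of the 10 genes. BTG2 was left out because no probe set carried its symbol alone. A group of 16 of these probe sets reached a signal of 50 on at least 3 arrays and was tested within all 15998 probe sets that did so. The remaining 2, 1 of 5 for JUN and 1 of 3 for IER2, stayed low, with signals of 2.1 to 63.7 and 0.4 to 41.7 on the 15 arrays.

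The animals were crosses of Dorset, Suffolk and Rambouillet sheep with no treatment, and each stage was a different set of 3 animals with 1 array per animal. The fetal developmental stages were 80, 100 and 120 d. The 150 d animals were newborn lambs, 1 to 3 days after birth, and the 230 d animals were lambs 12 weeks after birth. By the group totals in the methods all were male except for 1 female at 100 d and 1 at 120 d, and the labels do not say which. Ovine RNA was hybridised to an Affymetrix array made for cattle, so a low signal may also come from a mismatch in sequence. The muscle was dissected within minutes of death and snap frozen. The number of arrays limits the precision, and values below are MAS5 signals on a linear scale unless called log2.

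Immediate early genes are transcribed within minutes of a stimulus, from factors already present in the cell, and their transcripts are short lived. Products of FOS and FOSB pair with those of JUN and JUNB to form activator protein 1 (AP-1), which binds DNA and directs later genes. ATF3 and EGR1 encode further DNA binding factors of the same first wave, and IER2 encodes a small nuclear protein. BTG1 belongs to a family of antiproliferative proteins that join the deadenylase complex, and CITED2 encodes a coregulator that competes with hypoxia-inducible factor 1 for CBP and p300. In muscle, FOS, JUN, EGR1 and ATF3 are known to respond to contraction, stretch, injury and handling of tissue.

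FOS, JUN, ATF3 and 1 probe set of EGR1 had their highest stage means in the lambs of 230 d. BTG1 was also highest there, with the 120 d fetus next, and was lowest in the newborn. CITED2 was highest at 120 d and lowest in the newborn. Mean log2 signal was highest at 230 d for 13 of the 16 probe sets, against 28.2% of all 15998. The 3 arrays of 230 d lay above all 9 fetal arrays for 7 of the 16, against 14% of all. These 7 were both probe sets of FOS, 3 of JUN, 1 of EGR1 and that of ATF3. The shares are descriptions without a test. The 16 probe sets stand for 9 genes, and members were chosen with earlier results of these data known. The same 7 stood apart with array medians set equal and with quantile normalization, but none did when arrays were scaled to the hybridisation controls, where 5 of 16 were highest at 230 d (6.74% of all). With that scaling the median log2 difference of all probe sets between 120 d and 230 d was -0.96, against -0.06 as deposited, so each difference below is relative to the other probe sets on the array.

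Within the AP-1 genes, JUN gave the most even rise. Its leading probe set, of higher mean log2 signal than its others, read 2303.8, 2391.8 and 1438.5 at 80 d, 2580.2, 1351.3 and 1606.5 at 100 d, and 2348.4, 1772.1 and 1484.4 at 120 d. The newborn arrays read 2755.1, 2913.2 and 2414.2, and those of 230 d read 5640.5, 5388.8 and 3747.3. The fetal stages overlapped one another, the newborns lay just above the 120 d fetuses, and the older lambs lay above every other animal. Its mean and SD over 3 animals were 1868 ± 440 in the 120 d fetus, 2694 ± 255 in the newborn and 4926 ± 1028 in the 230 d lamb. Between 120 d and 230 d JUN rose by 1.40 on the log2 scale (standard error 0.29, limma adjusted p = 0.00385), about 2.64-fold. Neither step alone passed, with log2 fold changes of 0.55 (adjusted p = 0.201) and 0.85 (adjusted p = 0.103), and the first of these turned to -0.10 with scaling to the hybridisation controls.

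The other kept probe sets of JUN, numbered by falling mean signal, were also highest at 230 d. The second read 162.5, 192.5 and 259.5 at 120 d, 455.7, 439.2 and 342.0 at 150 d, and 836.9, 740.3 and 411.3 at 230 d. It rose by 1.66 from 120 d to 230 d (standard error 0.36, limma adjusted p = 0.00477). The third read 70.7, 74.7 and 140.0 at 120 d and 395.0, 398.4 and 197.7 at 230 d, a log2 difference of 1.80 that did not pass (adjusted p = 0.0117), though no value overlapped. The fourth was the flattest, with 61.2 to 138.3 in the fetuses and 129.4 to 187.7 at 230 d (log2 fold change 0.68, adjusted p = 0.174). The call of the leading probe set was lost without 120 d replicate 2 or 3 (1.38 and 1.25) and without 230 d replicate 1 or 2 (1.29 and 1.33). It was also lost with quantile normalization (1.13) and with scaling to the hybridisation controls (0.50). That of the second was lost without 120 d replicate 1 or 2 (1.50 and 1.63), without 230 d replicate 1 or 2 (1.46 and 1.55), with no filter (adjusted p = 0.0114) and with scaling to the hybridisation controls (0.76).

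FOS, the partner of JUN in AP-1, had the largest differences between stages and also the largest between animals. Its leading probe set read 228.2, 613.3 and 91.6 at 80 d, 171.3, 109.0 and 12.6 at 100 d, and 124.8, 65.6 and 84.2 at 120 d. The newborn arrays read 206.5, 387.6 and 1886.7, and those of 230 d read 980.3, 1402.2 and 779.3. The newborns differed among themselves by 9.14-fold, and the third of them exceeded all lambs of 230 d, which differed by only 1.8-fold. Between 120 d and 230 d the log2 difference was 3.53 (standard error 0.99, 95% confidence interval 1.40 to 5.67, limma adjusted p = 0.0187), about 11.6-fold, and it did not pass 0.01. It passed without 100 d replicate 3, the array at 12.6 (adjusted p = 0.00691), and on the arrays of the 2 stages alone (adjusted p = 0.00495), as well as with an offset of 16 or with limma's trend and robust options. From 120 d to 150 d the log2 difference was 2.59 (adjusted p = 0.0791), with no overlap.

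The dimmer probe set of FOS gave the same order of the 5 stages. It read 66.3, 77.3 and 19.2 at 120 d, 63.9, 73.1 and 274.2 at 150 d, and 204.8, 295.5 and 194.5 at 230 d. Here too the third newborn stood alone. The log2 difference from 120 d to 230 d was 2.30 (adjusted p = 0.0289), with 1 of the 3 fetuses of 120 d under a signal of 50. In both probe sets 80 d ranked above 120 d, and the values of the 2 stages overlapped.

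**Figure D1:**
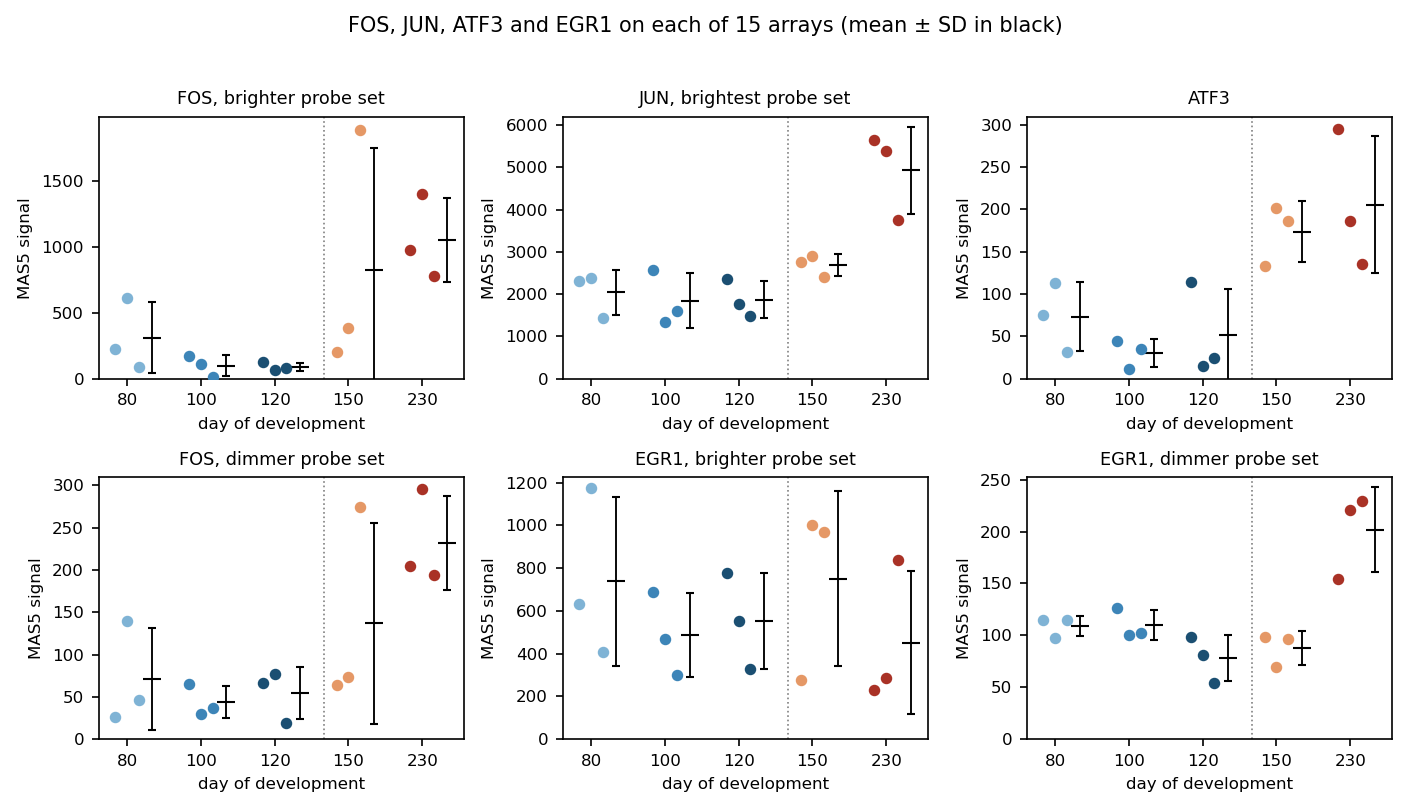
MAS5 signal (linear, from 0) of FOS, JUN, EGR1 and ATF3 probe sets at each day of development, with 1 point per animal in replicate order and the mean with its SD (n = 3) as a bar beside them (bars that would pass below 0 end at the axis). The dotted line marks birth. In 5 of the 6 panels the 230 d animals lie above all fetal animals, the third newborn is the highest animal for the brighter FOS probe set at 1886.7, and the brighter EGR1 probe set shows no such order.

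FOSB and JUNB, the other AP-1 genes of the list, did not pass in any comparison. JUNB read 242.3, 118.4 and 525.6 at 120 d, and 340.6, 210.2 and 153.4 at 150 d. At 230 d its values were close together, 360.8, 333.3 and 348.8, and they fell within the range of the 120 d fetuses. The log2 difference from 120 d to 230 d was 0.49 (95% confidence interval -0.47 to 1.45, adjusted p = 0.444). FOSB was dim on the array. Its leading probe set ran from 42.3 to 178.0 in the fetuses, read 207.2, 70.8 and 140.4 at 150 d and 104.9, 129.5 and 192.7 at 230 d (log2 fold change against 120 d 0.60, adjusted p = 0.413). The other read 74.5, 71.2 and 5.9 at 120 d and 144.6, 78.8 and 92.4 at 230 d (1.69, adjusted p = 0.138). With scaling to the hybridisation controls the 230 d differences of JUNB and of the leading FOSB probe set turned to -0.41 and -0.30.

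ATF3, a stress responsive factor that can pair with JUN, was under a signal of 50 in 6 of the 9 fetuses. It read 75.4, 112.9 and 31.5 at 80 d, 44.6, 12.0 and 35.2 at 100 d, and 113.9, 15.4 and 24.7 at 120 d. The newborns read 132.7, 201.5 and 185.8 and the lambs of 230 d read 294.2, 186.7 and 135.7, so that all 6 postnatal animals lay above all 9 fetuses. The log2 differences from 120 d were 2.28 at 150 d (standard error 0.71, limma adjusted p = 0.0362) and 2.48 at 230 d (adjusted p = 0.0214). Neither passed 0.01. Without 120 d replicate 1, the one late fetus at 113.9, they were 3.13 and 3.32 and both passed (adjusted p = 0.00549 and 0.00319).

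EGR1, a zinc finger factor of the same first wave, was measured by probe sets that went separate ways. The dimmer one stayed between 54.1 and 126.3 in the fetuses, read 97.9, 69.0 and 96.2 at 150 d, and 154.4, 221.1 and 229.6 at 230 d. It rose by 1.39 from 120 d to 230 d (standard error 0.25, limma adjusted p = 0.00161). This call held when any single array was left out and was lost with scaling to the hybridisation controls (0.49). The log2 difference from 150 d, 1.20, did not pass (adjusted p = 0.0146), with no overlap. The brighter one read 633.5, 1172.9 and 406.9 at 80 d, 690.6, 467.6 and 300.6 at 100 d, and 779.2, 554.2 and 329.9 at 120 d. It read 276.8, 1004.1 and 970.3 at 150 d and 230.7, 286.2 and 837.5 at 230 d, and animals of every stage overlapped. Its log2 difference from 120 d to 230 d was -0.46 (95% confidence interval -1.79 to 0.88, adjusted p = 0.627). Over the 15 arrays the log2 signals of the pair had r = -0.14, whereas those of the FOS pair had r = 0.80 and those of the 4 kept JUN probe sets 0.60 to 0.91. A direction for EGR1 as a gene therefore rests on the choice of probe set.

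IER2 had its lowest values in the newborn. Its leading probe set read 538.9, 482.4 and 444.7 at 80 d, 774.0, 516.7 and 521.2 at 100 d, and 603.4, 494.0 and 548.8 at 120 d. The newborns read 448.6, 341.3 and 372.3, all below the 100 d and 120 d fetuses, and the lambs of 230 d read 552.7, 560.1 and 757.3. The log2 differences were -0.51 from 120 d to 150 d (adjusted p = 0.105) and 0.68 from 150 d to 230 d (adjusted p = 0.0757), and neither passed. With scaling to the hybridisation controls the first was -1.16 and passed (adjusted p = 0.0041). The dimmer kept probe set was also lowest at 150 d, with all stages overlapping.

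BTG1 fell across birth and rose after it. It read 5858.2, 4467.0 and 4268.3 at 80 d, 6547.2, 5770.0 and 5000.8 at 100 d, and 7057.5, 5559.1 and 6469.8 at 120 d. The newborns read 3457.9, 2417.7 and 3271.7, below every animal of any other stage, and the lambs of 230 d read 8118.7, 6514.9 and 6620.6. Its mean and SD over 3 animals were 6362 ± 755 in the 120 d fetus, 3049 ± 555 in the newborn and 7085 ± 897 in the 230 d lamb. BTG1 fell by 1.07 on the log2 scale across birth (standard error 0.21, limma adjusted p = 0.00304) and rose by 1.23 after it (standard error 0.21, adjusted p = 0.00525). Both comparisons share the newborn arrays. At 230 d it differed from 120 d by 0.15 (95% confidence interval -0.29 to 0.60, adjusted p = 0.618). The sign of this last difference turned with quantile normalization (-0.30) and with scaling to the hybridisation controls (-0.75). The fall was not called without 120 d replicate 1 or 3 (-0.99 and -1.06) or 150 d replicate 2 (-0.91). The rise was not called without 100 d replicate 2 (1.23), 150 d replicate 2 (1.07) or any one of the 230 d arrays (1.12, 1.28 and 1.27), nor with scaling to the hybridisation controls (0.98).

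CITED2 was higher at each later fetal stage and low again in the newborn. It read 1252.3, 1410.5 and 1381.3 at 80 d, 1694.5, 2419.8 and 1832.9 at 100 d, and 2528.1, 2709.0 and 3243.7 at 120 d. Each fetal stage lay wholly above the one before it. The steps of 0.54 and 0.52 on the log2 scale did not pass, and nor did the whole fetal span of 1.06 (standard error 0.32, 95% confidence interval 0.38 to 1.75, adjusted p = 0.0878). The newborns read 696.0, 1530.1 and 1257.4, and CITED2 fell by 1.35 from 120 d to 150 d (standard error 0.32, limma adjusted p = 0.0091). That call stood close to the threshold. It was lost in 12 of the 15 runs that left out 1 array, at -1.59 to -1.02 over all of them, and held without 150 d replicate 2 or 230 d replicate 1 or 3. It was also lost with array medians set equal (-1.23), with no filter (adjusted p = 0.0216), with the nested F-statistic and on the 2 stages alone (adjusted p = 0.0523). The lambs of 230 d read 952.4, 1422.5 and 2080.3, still below all 120 d fetuses (log2 difference -0.99, adjusted p = 0.0348) and overlapping the newborns.

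**Figure D2:**
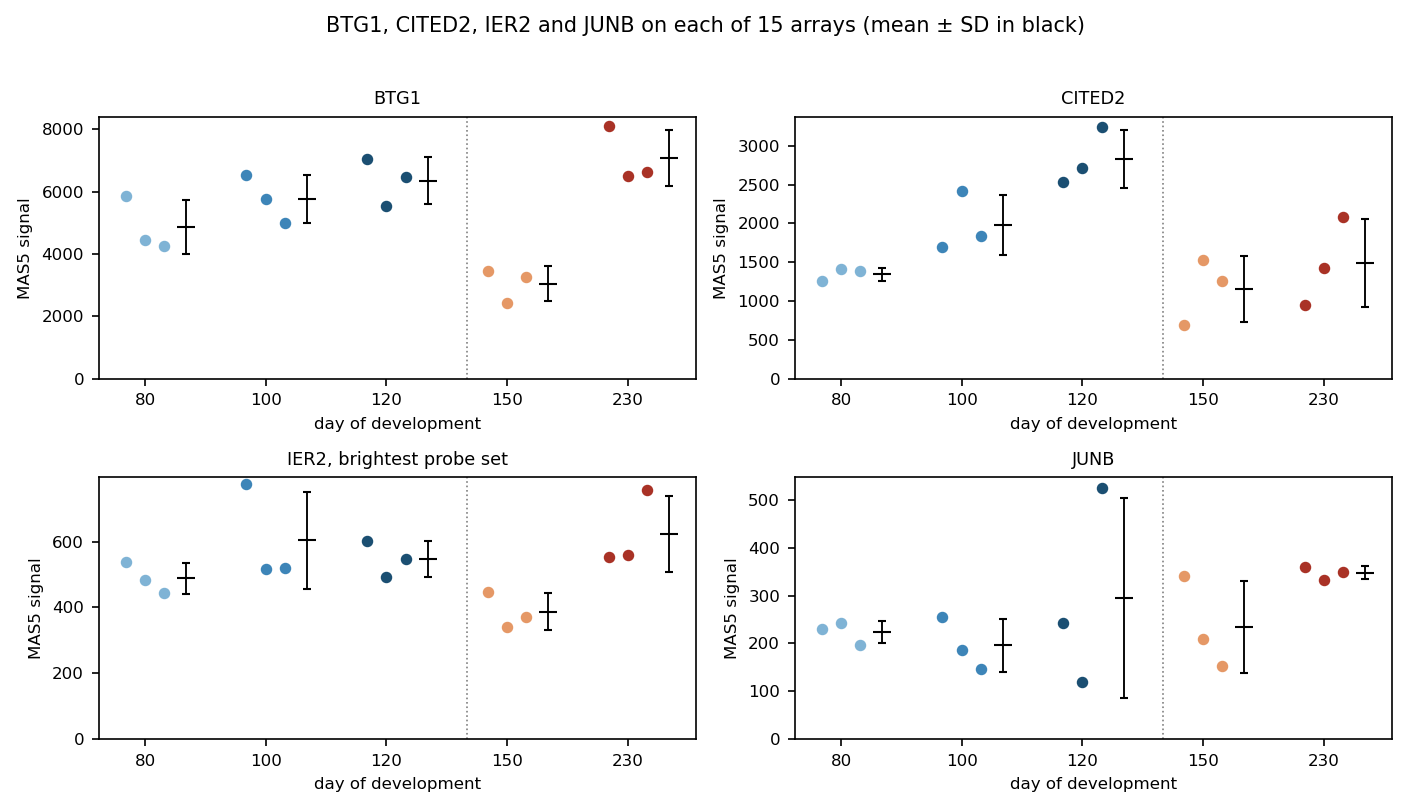
MAS5 signal (linear, from 0) of BTG1, CITED2, the leading IER2 probe set and JUNB at each day of development, with 1 point per animal in replicate order and the mean with its SD (n = 3) beside them. The dotted line marks birth. The newborn BTG1 values (2417.7 to 3457.9) lie below those of every other stage, CITED2 is highest at 120 d, and JUNB is spread from 118.4 to 525.6 at 120 d.

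Counts of members past the test were small beside the differences described above. From 80 d to 100 d none of the 16 probe sets was called by limma, where 0.125% of all probe sets were, and from 100 d to 120 d none was, where 0.0563% were. In both intervals 0 of the 16 had an unadjusted p under 0.05. Across birth (120 d to 150 d) 2 of 16 were called, both lower (BTG1 and CITED2), against 11.2% of all. From 150 d to 230 d 1 was called, higher (BTG1), against 2.03%. Between 120 d and 230 d 3 were called, all higher (JUN by 2 probe sets and 1 of EGR1), against 14.2%, and at an adjusted p under 0.05 there were 8 of 16 against 26.6%. The moderated F-statistic over the 4 intervals called 4 of 16 (2 of JUN, 1 of EGR1 and BTG1), against 25.8%. Over the fetal span of 80 d to 120 d, a comparison added after the CITED2 values had been seen, none of 16 was called by limma against 1.31%, and CITED2 alone had an unadjusted p under 0.05. At 0.01 each count lies within 1 probe set of what the share of all probe sets would give among 16, so the counts do not set the genes apart. Fitted on the arrays of the 2 stages alone, the named calls were all lost, and the leading FOS probe set was the 1 that passed, from 120 d to 230 d.

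The direction of the differences was also described over all 16 probe sets, called or not. From 120 d to 230 d the log2 difference was above 0 for 13 of the 16 probe sets, with a median of 1.03 against -0.06 for all probe sets. From 150 d to 230 d it was above 0 for 15 of 16 (median 0.66 against 0.07), and from 120 d to 150 d for 10 of 16 (median 0.37 against -0.15). The probe sets share genes and the first pair of comparisons shares the 230 d arrays, so these are descriptions without a test. Across birth 5 of the 10 positive differences turned negative with scaling to the hybridisation controls, those of the leading JUN probe set (-0.10), the third JUN probe set (-0.23), the leading FOSB probe set (-0.17) and both EGR1 probe sets (-0.34 and -0.46). From 150 d to 230 d 3 of the 15 did so. On the scale of the hybridisation controls the 230 d difference against 120 d also changed sign for the fourth JUN probe set, to -0.23, and for the leading IER2 probe set, to -0.73.

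**Figure D3:**
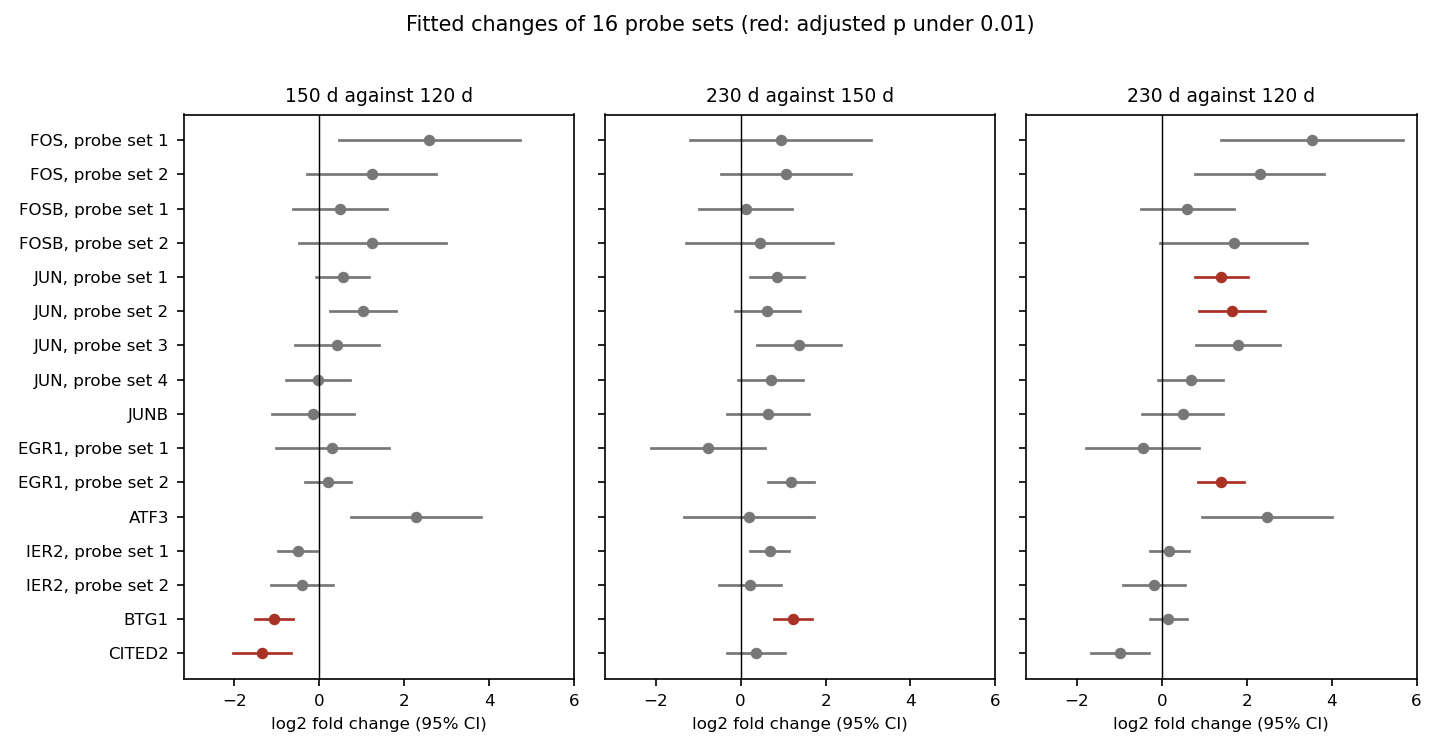
Log2 fold change with its 95% confidence interval from limma for each of the 16 kept probe sets in 3 comparisons, with probe sets of a gene numbered from the highest mean signal and those with an adjusted p under 0.01 in red. Across birth BTG1 and CITED2 are red on the left of 0, from 150 d to 230 d BTG1 alone is red, and from 120 d to 230 d 2 probe sets of JUN and 1 of EGR1 are red, while the interval of FOS is the widest of the leading probe sets in each panel.

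Spread between animals of one stage differed strongly among the genes. The SD of log2 signal within stages was 1.34 for the leading FOS probe set, where the median of all probe sets was 0.40. It was the largest among the 2842 probe sets of like mean signal (within 0.5 on the log2 scale), 99.96% of which had a smaller SD. The brighter EGR1 probe set (0.83) stood above 99.1% of those of like signal, and JUNB (0.58) above 94.3%. ATF3 had an SD of 0.96 at a low signal, above 94.0% of its like. The SD was smaller for BTG1 (0.22), the leading IER2 probe set (0.23) and the dimmer EGR1 probe set (0.29). These exceeded 56.3%, 32.8% and 18.3% of those of like signal, so BTG1 was near the middle of its like. CITED2 (0.40) and the leading and second JUN probe sets (0.36 and 0.46) stood above 87.8%, 84.9% and 88.1% of theirs.

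**Figure D4:**
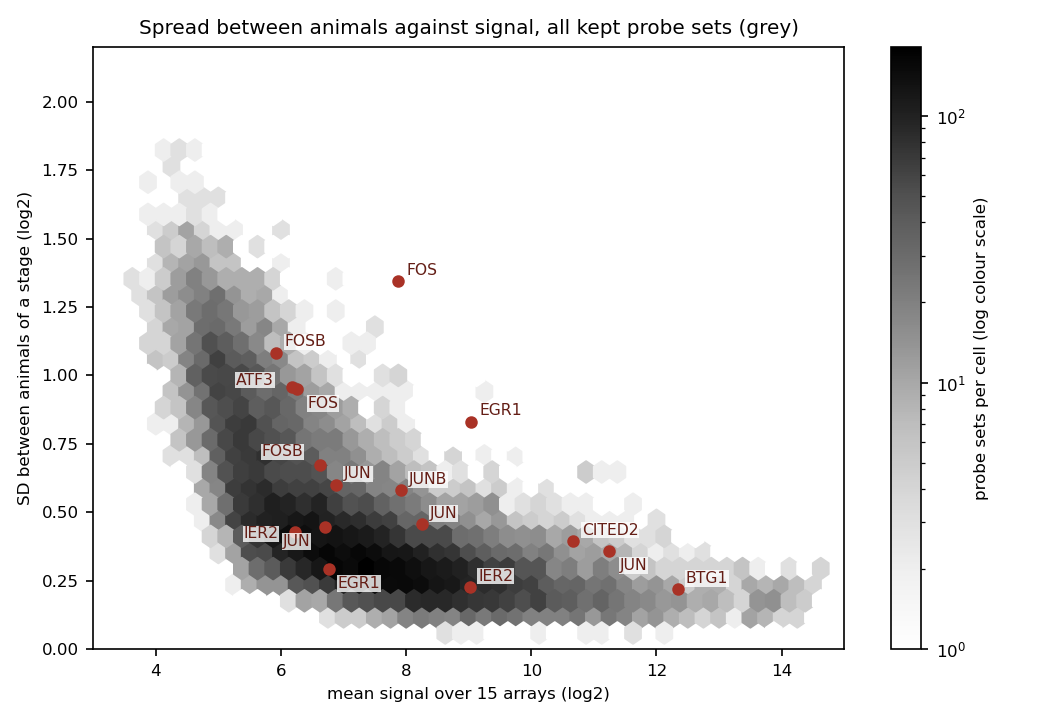
SD of log2 signal between animals of a stage against mean log2 signal over the 15 arrays, for all 15998 kept probe sets (grey cells, darker with more probe sets on a log colour scale) and the 16 of immediate early genes (red). FOS at 1.34 and EGR1 at 0.83 lie above nearly all probe sets of their signal, and BTG1 at 0.22 lies within the bulk.

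In the fetal stages single animals tended to be high for several of the genes. The first 100 d fetus had the highest value of its stage for 14 of the 16 probe sets, with a median deviation from the stage mean of 0.55 on the log2 scale, where over all probe sets it was 0.04. The second 80 d fetus and the first 120 d fetus each led their stage for 10 of 16. After birth no animal stood out in this way. The newborns led for 7, 4 and 5 of 16 and the 230 d lambs for 7, 3 and 6. Several of the 16 probe sets share a gene. After removal of the stage means the deviations of FOSB and IER2 over the 15 arrays had r = 0.87 (Spearman's rho 0.79), which stayed at 0.81 without the 2 arrays farthest from the median of FOSB. Those of JUN and ATF3 had r = 0.78 (rho 0.82, and 0.74 without the 2 farthest arrays of JUN). FOSB and BTG1 had r = 0.65 (rho 0.6), and EGR1 and CITED2 had r = 0.61 (rho 0.51). The r of EGR1 and CITED2 fell to 0.31 without the 2 farthest arrays of EGR1 and to 0.34 without those of CITED2. That of FOSB and BTG1 fell to 0.58 and 0.53 in the same way. FOS and EGR1 had r = 0.59 (rho 0.47), and BTG1 and CITED2 went opposite ways with r = -0.57 (rho -0.55). The AP-1 partners FOS and JUN had r = 0.38 (rho 0.39), which was 0.52 without the 2 farthest arrays of FOS and 0.12 without those of JUN. These are some of the 36 pairs of leading probe sets, given as descriptions, and genes on one array share its RNA and its scaling.

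**Figure D5:**
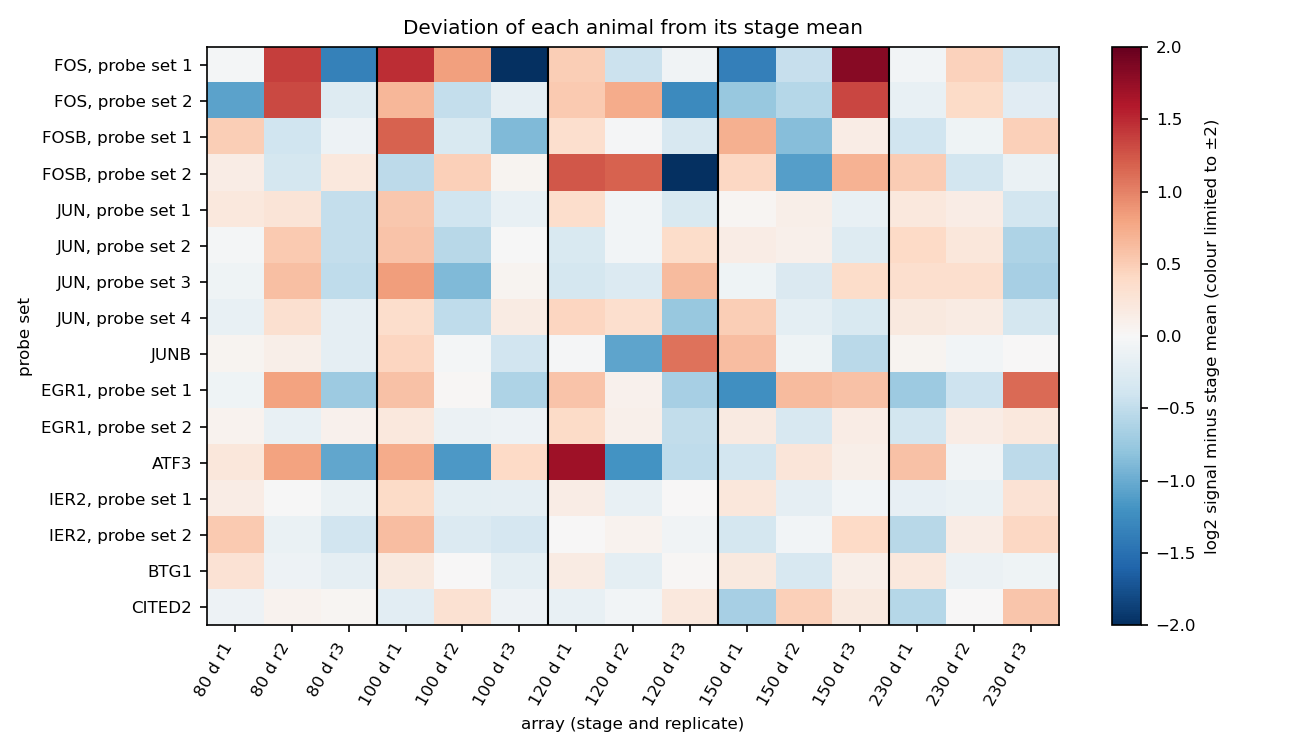
Deviation of each array from the mean of its stage (log2 signal, red above and blue below, colours limited at 2 in either direction) for the 16 kept probe sets in rows and the 15 arrays in columns, with lines between stages. The first 100 d array is red in 14 rows, and the FOS rows hold the strongest colours, with the third newborn array high and the third 100 d array low.

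Among all named genes, those whose log2 signals over the 15 arrays were most like a member's were found by Pearson's r, one probe set per gene for 7552 genes. For JUN these were ZFP36, which encodes an mRNA decay factor and is a primary response gene itself (r = 0.92), FKBP5, a glucocorticoid induced immunophilin (r = 0.91), and POLR2C, an RNA polymerase II subunit (r = 0.91). FKBP5 also led for ATF3 (r = 0.88). MARK4 was nearest to FOS (r = 0.92), CNPPD1 to IER2 (r = 0.93), TMEM109 to FOSB (r = 0.91) and LAMTOR1 to JUNB (r = 0.79). COLGALT2 was nearest to BTG1 (r = 0.92), ahead of EZH1, a histone methyltransferase (r = 0.91). For CITED2 it was TMEM44 (r = 0.88), and for the brighter EGR1 probe set CCT4 (r = 0.83). The arrays share their stages, which sets much of each r.

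Other primary response genes were called in both directions. Of 47 listed, 33 had a probe set and 31 a kept one, with 48 probe sets in all. Across birth 2 probe sets were called higher and 4 lower, from 150 d to 230 d 4 higher and 2 lower, and from 120 d to 230 d 7 higher and 4 lower, where 11.2%, 2.03% and 14.2% of all probe sets were called. Without 1 array the counts were 1 to 6 across birth (1 without 120 d replicate 3), 2 to 6 after it (4 or more in 4 of the 15 runs) and 8 to 12 from 120 d to 230 d. None was called by limma within the fetal stages. ZFP36L2, an mRNA decay factor, fell across birth from 1276 ± 83.2 to 549.9 ± 131 (mean and SD of 3 animals, as below), a log2 difference of -1.24 (adjusted p = 0.0019). It rose to 1672 ± 292 at 230 d (1.62, adjusted p = 0.00171). PPP1R15A, the stress regulated phosphatase subunit GADD34, rose from 256.3 ± 22.3 to 736.4 ± 188 after birth (1.50, adjusted p = 0.00651). IER3 fell from 1571 ± 503 to 394.4 ± 40.5 (-1.94, adjusted p = 0.00161), and SGK1, a kinase induced by serum and glucocorticoid, was called lower by its dimmer probe set (adjusted p = 0.00672), from 77.03 ± 21.2 to a signal under 50, so no fold is given. Its brighter probe set fell from 1140 ± 240 at 120 d to 384.5 ± 6.91 at 230 d (-1.55, adjusted p = 0.0035). The list had a median log2 difference of -0.07 across birth, 0.50 from 150 d to 230 d and 0.40 from 120 d to 230 d, where all probe sets had -0.15, 0.07 and -0.06.

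Of 26 genes listed as acting upstream of the immediate early genes, 14 had a kept probe set (20 probe sets). Across birth 3 were called, all higher, against 11.2% of all probe sets, and 0 to 3 without 1 array, with 0 without 120 d replicate 3 or 150 d replicate 1 or 3. The median log2 difference of the list was 0.17, where that of all was -0.15. SRF, the serum response factor that binds the promoters of FOS and EGR1, rose from 62.77 ± 7.52 to 185.1 ± 24.6, a log2 difference of 1.56 (limma adjusted p = 0.00305). The kinase genes MAP2K2 and RPS6KA3 of the ERK pathway rose by 0.93 and 0.78 (adjusted p = 0.00548 and 0.00564). CAMK2G, a calcium dependent kinase, had 0.85 (adjusted p = 0.0121). None was called by limma from 150 d to 230 d, and 4 were called higher at 230 d than at 120 d, against 14.2% of all, with 2 to 4 without 1 array.

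Of 20 listed partners of the members, 14 had a kept probe set (19 probe sets). Across birth 1 was called higher and 3 lower, against 11.2% of all, and 0 to 4 were called without 1 array, with 0 without 120 d replicate 3. The median log2 difference was -0.30, where that of all was -0.15. CREBBP, the CBP coactivator that CITED2 binds, fell from 2418 ± 367 to 1206 ± 144 (limma adjusted p = 0.00216). ATF2, a partner of JUN, fell by 0.79 (adjusted p = 0.00746), and 1 of the probe sets of PABPC1, the poly(A) binding protein, was called lower with a newborn mean under 50 (adjusted p = 0.00435). HIF1A, whose product competes with CITED2 for that coactivator, fell after birth from 2384 ± 242 to 1097 ± 48.5 (-1.12, adjusted p = 0.00124). At 230 d 2 were called higher and 5 lower than at 120 d, against 14.2% of all, with 3 to 7 called without 1 array.

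Values of other cells and 1 measure of RNA quality also moved between stages. Summed signals of 7 measured muscle fibre markers (of 9 listed, none under 50) went from 64785.5 to 85597.3 at 80 d and 89216 to 113005 at 120 d to 203505 to 279658 at 230 d. The 6 measured leukocyte markers of 8 listed summed to 356.7 to 530.8 up to 150 d and to 610.9 to 965.4 at 230 d, where the stage means of FOS, JUN and ATF3 were highest, with the defining marker PTPRC under 50 at every stage. Endothelial markers (5 of 5) summed to 5106.1 to 6146.4 at 120 d, 1662.6 to 3147.5 at 150 d and 2570.2 to 2846.1 at 230 d, and the 4 measured erythroid markers of 5 to 12356 to 12983.1, 261.7 to 534.7 and 108.5 to 185.7. The endothelial KDR was under 50 at 100 d, 150 d and 230 d. Of the erythroid markers SLC4A1 was under 50 at every stage and ALAS2 at 150 d and 230 d. The 3 measured adipocyte markers of 4 summed to 106.8 to 295.6 at 120 d, 639.5 to 1163 at 150 d and 226.8 to 483.8 at 230 d, with ADIPOQ and LEP under 50 at 120 d and LEP under 50 later. Fibroblast markers (6 of 6) summed to 63931.5 to 66720.6 at 120 d and 42340.9 to 49989.9 at 230 d, and smooth muscle markers (3 of 3) to 2420 to 3164.5 and 4479.3 to 4742.7. The part of these cells in the results was not tested, and in whole muscle fewer cells of a type and less RNA per cell cannot be told apart. Heat shock and handling genes (10 of 11 kept, 21 probe sets) gave 1 call across birth (HSPB8, higher by 1.10), none by limma after it, and 2 higher at 230 d than at 120 d, against 11.2%, 2.03% and 14.2% of all. The last count was 0 or 1 in each of the 15 runs without 1 array. This list had a median log2 difference of 0.57 across birth, -0.22 from 150 d to 230 d and 0.39 from 120 d to 230 d. All probe sets had -0.15, 0.07 and -0.06. HSPA1A, the inducible HSP70, had a log2 difference of 1.29 from 150 d to 230 d that did not pass (adjusted p = 0.0337). The 3' to 5' ratio of the actin control, a measure of RNA integrity, was 1.89 ± 0.289 (SD over 3 animals) in the 80 d fetus, 1.03 ± 0.104 by 120 d, then 0.910 ± 0.052 and 0.995 ± 0.054 after birth. The same ratio of the GAPDH control was lowest at 80 d, at 1.09 ± 0.118, with 1.13 ± 0.040 at 100 d and 1.14 ± 0.051 at 120 d. After birth it was 1.21 ± 0.118 at 150 d and 1.16 ± 0.090 at 230 d. Array medians ran from 51.4 to 69.4, and 50.7% to 58.1% of probe sets reached 50.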

How the data were processed

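MAS5 signal intensities deposited by the authors were used, on a linear scale (15 arrays, 1 per animal). By the methods, background was corrected in regions of the array, probes were combined by a one-step Tukey biweight and each array was scaled to a mean of 200. No source used here gives the MAS5 version. Genes were named from the platform annotation, by probe sets with 1 symbol (13292 of 24016 after removal of 112 controls). Signals under 0.1 were set to 0.1, log2 was taken, and probe sets at 50 or more on at least 3 arrays were kept. Stages were compared with limma 3.58.1 (R 4.3.3; lmFit, eBayes without trend, all 15 arrays, 10 residual degrees of freedom). Benjamini-Hochberg adjustment was made within each comparison, with calls at 0.01. Confidence intervals are 95%. All member probe sets are described, and of each other list up to 4 members with the smallest p across birth or after it. Members and lists were chosen with earlier results of these data known. The comparison of 80 d with 120 d was added after the values had been seen, as was the count at 0.05. The fit was tested on simulated data, with sets of 50 probe sets raised at 230 d by known folds. Against 150 d it called 0% of those raised 1.5-fold, 12% at 2-fold, 44% at 3-fold and 60% at 4-fold. Sex was not a covariate, since labels do not give it. Coordinates and sequences are not used here. Figures were drawn with matplotlib 3.10.9 (Python 3.11.15).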

Additional observations from a re-analysis of the deposited data

How the results depend on the processing

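The results were recomputed with quantile normalization, array medians set equal, scaling to the hybridisation controls, an offset of 16 before log2, no filter, a stricter filter (100 on 3 arrays), limma's trend and robust options, a nested F-statistic, the arrays of the 2 stages alone, a replicate block and each array left out. None turned the direction of a called difference. In the fetal intervals 0 of 16 probe sets were called under each of them. Across birth the count of 2 became 1 with array medians set equal or no filter and 0 on the 2 stages alone, and 0 to 2 without 1 array, with 0 without 120 d replicate 3. It was 3 with scaling to the hybridisation controls, which added the leading IER2 probe set, and 2 with the nested F-statistic, which lost CITED2 and added the second JUN probe set. From 150 d to 230 d the count of 1 became 0 with scaling to the hybridisation controls, no filter or the 2 stages alone, 2 with the offset or the stricter filter, 3 with the nested F-statistic, and 0 to 2 without 1 array. From 120 d to 230 d the count of 3 became 1 with scaling to the hybridisation controls (CITED2, lower) or the 2 stages alone, 6 with the offset or with trend and robust, and 1 to 4 without 1 array, with 1 without 120 d replicate 2 or 230 d replicate 1 or 2. The moderated F count of 4 became 7 with the offset, 1 with no filter, 8 with trend and robust, and 1 to 5 without 1 array. For most of these the cause was not tested, but fewer arrays leave fewer degrees of freedom.

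Over all probe sets, calls across birth were 706 higher and 1083 lower, 783 and 657 once array medians were equal, 721 and 776 by quantile normalization, and 162 and 3872 with scaling to the hybridisation controls, where the median of all was -0.81, against -0.15 as deposited. From 150 d to 230 d they were 151 and 173, 74 and 234 once array medians were equal, and 33 and 176 with the hybridisation controls. From 120 d to 230 d they were 926 and 1346 against 147 and 5707 with those controls.

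Replicate numbers do not pair the animals, which differed at each stage. Deviations of the 30 same-number pairs of arrays had r of -0.05 to 0.21, with 6 over 0.1. With the replicate block the counts were 0, 0, 2 and 1 in the 4 intervals, 3 from 120 d to 230 d and 3 by the moderated F-statistic, within 1.5 times those without the block. At signals under 50, as for ATF3 and the dimmer FOS probe set in the fetus, the size of a fold is uncertain, and a log2 difference that did not pass may still be real.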
